A study of Homo sapiens with 6 samples.

Results

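Described here is the baseline transcriptome of T24, a long-established line from a human bladder carcinoma, as 3 RNA sequencing libraries of vehicle-treated cells recorded it. The libraries were chosen by their labels alone, as the 3 vehicle replicates among the 6 libraries of the series, and no measured value entered that choice. The other 3 libraries came from the same line after LPS plus nigericin, a component of the bacterial outer membrane given with a potassium ionophore, and are not described here. All cultures were of that single line, labelled epithelial, kept in high-glucose DMEM with penicillin and streptomycin. The labels name no serum. They do not say what the vehicle was, at which dose or for how long it was given, or whether each library had a culture of its own, and the spread between libraries may therefore be technical. The labels name more than 1 company for RNA extraction and do not say which libraries each handled.

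The bladder is lined by urothelium, a layered epithelium in which basal cells (keratin 5, p63) rest on the basement membrane and luminal umbrella cells carry uroplakins and keratin 20 under control of PPARG, GATA3 and FOXA1. Bladder carcinomas are commonly sorted by which of these programmes they keep, and lines that keep neither can instead express genes of mesenchymal cells. The receptors and secreted factors that a line makes under vehicle bear on what it can sense and release before any stimulus. Transcript levels, the only measure here, do not give the protein made.

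The libraries held 89152224, 81917343 and 82429803 counts over 37871 listed genes. Levels within a gene are given as CPM (counts scaled so that each library sums to 1000000), and levels compared between genes as TPM (the same counts divided by annotated exon length, then scaled to the same sum). Values after ± are the SD over n = 3 libraries. A gene is described as present at 1 CPM or more in every library, as trace when under 0.1 CPM in every library, and as intermediate between these. A gene with a count of 0 in all libraries is allowed up to 0.0336, 0.0366 and 0.0364 CPM by its 3-count limit, which covers counting error only. By these rules 12861 genes were present, 8093 intermediate, 6809 trace and 10108 at 0. Of 17557 listed protein-coding genes, 11429 (65.1%) were present and 2079 (11.8%) were at 0. Genes not listed enter neither share, and 65.1% is the share to set beside the counts of present genes in the lists below.

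Strand-specific counting is not stated, so reads of genes whose exons overlap cannot be told apart with certainty. Of the 17557 protein-coding genes, 7783 share at least 50 exon bases with another annotated gene. Among the present genes below this holds, among others, for GAPDH, FTH1, TUBA1B, KRT7, KRT8, KRT18, CD44, ITGA6, EGFR, ERBB2, CTNNA1, CTNND1, SPINT1 and ESRP2. The same is true of TGM2, AXL, VIM, CDH2, ZEB1, ZEB2, PAX8 and CD68. It also holds for EPHB4, MST1R, FGFR1, GAS6, IGF2, TGFB1, DKK1, VEGFA, ENG, FZD8, MIF, LIF, IL6ST, IL4R, IFNGR2, OSMR, IL1RAP, TLR4 and PYCARD. Others with shared exons were NR2F6, ESRRA, CTSD, PLAU, COL4A2, LAMA5, HLA-B, CIITA, CCND1, CDKN1A and CDKN2A.

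The libraries differed in the balance of transcripts by base composition, and library 2 stood farthest from the others. In the decile of protein-coding genes with the lowest GC content, the median gene deviated from its mean over the libraries by 0.05 in library 1, -0.51 in library 2 and 0.47 in library 3 on the log2 CPM scale. In the decile with the highest GC content these medians were 0.03, 0.12 and -0.15. A gene that is lowest in library 2 and highest in library 3 therefore follows a pattern shared by 54.5% of the 11429 present protein-coding genes, and with library 2 lowest for 62.9% of them, the figure to set beside the shares given for the lists below. Whether this pattern came from the cells or from library preparation was not tested. These shares, and those of the lists below, were taken by CPM, and the order of the libraries for a gene can differ in TPM. The junction gene JUP, at 127.87, 122.36 and 121.99 CPM, was lowest in library 3 by CPM and in library 2 by TPM.

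The most abundant transcripts were those of mitochondrial respiration, glycolysis, iron storage and the cytoskeleton. The 25 genes with the most counts held 15.3% ± 0.806 of each library, and 467 to 626 genes held 50% of it. MT-CO1, a core subunit of cytochrome oxidase encoded in the mitochondrial genome, led with 17556, 17065 and 18403 CPM. All 37 mitochondrial genes listed took 6.87% ± 0.426 of counts, and 83 cytosolic ribosomal protein genes took 6.54% ± 0.634. A list of 17 glycolytic genes, drawn up after the top genes had been seen, took 3.96% ± 0.411.

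Per length, GAPDH, which oxidises glyceraldehyde phosphate in glycolysis, was the highest nuclear gene at 14066 ± 1161 TPM. FTH1, the heavy chain of ferritin that stores iron, followed at 12770.0 ± 895 TPM, and TMSB10, an actin-monomer-binding thymosin, at 10041 ± 1400.0 TPM. These levels lay above those of PKM, the pyruvate kinase gene, at 3795 ± 374 TPM. With the longest transcript as length PKM averaged 7967 TPM and TMSB10 7418 TPM, so their order rests on the length used. By counts PKM came directly after GAPDH, at 11285 ± 1520.0 CPM, a scale that does not divide by exon length. Among the nuclear genes of the 25, TUBA1B (alpha tubulin) had the smallest coefficient of variation, 1.91%, at 3862, 4010.5 and 3916 CPM, though tubulin genes have near-identical copies. FN1, which encodes the matrix protein fibronectin, had the largest, 30.3%, at 3127, 2357 and 4319 CPM. That order, library 2 lowest and library 3 highest, is the one shared by most present genes.

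The abundant set also held genes of the surface, the matrix and the epithelial cytoskeleton. KRT7, TGM2 (a cross-linking transglutaminase), ITGA3 (the alpha chain of a laminin-binding integrin), ANXA2 (a membrane-binding annexin) and IGFBP4 (a secreted binder of insulin-like growth factors) all stood among the 25. IGFBP4 reached 3813, 4359.9 and 3223 CPM, and ITGA3 3049, 3333 and 2765 CPM. For both, library 2 was highest and library 3 lowest, the reverse of FN1.

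The keratins expressed were mainly those of simple epithelium, and the defining basal pair was nearly missing. Keratins are the intermediate filament proteins of epithelia, in which a type II chain pairs with a type I chain. KRT7, KRT8, KRT18 and KRT19, the chains of simple and transitional epithelia, were all present at high levels. KRT7 stood at 2422, 2528 and 2201 TPM in libraries 1 to 3. KRT18 stood at 1420.0, 1454 and 1299 TPM, and its type II partner KRT8 at 1194, 1195 and 1052 TPM. KRT19 stood at 535, 566 and 454 TPM. Library 3 was the lowest of the 3 for each of these chains in both TPM and CPM. Libraries 1 and 2 lay close together in TPM only. By CPM library 2 was the highest for each chain, with KRT7 at 3381, 3738 and 3029 CPM. The ratio of KRT18 to KRT8 per length was 1.19, 1.22 and 1.23 in the 3 libraries, although with the longest transcript as length it averaged 0.778, so its side of 1 rests on the length used. KRT8 and KRT18 share exon bases in the annotation, as do KRT7 and its antisense gene, and reads there cannot be told apart without a stated strand setting.

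Of the basal keratins, the defining pair KRT5 and KRT14 was at or near 0. KRT5, the type II chain of basal cells, had a count of 0 in every library, as did KRT6A, a chain of activated keratinocytes. KRT14, the partner of KRT5, had 0.112, 0.0488 and 0 CPM. KRT17, a type I chain of basal and stressed epithelium, was present at 111, 115 and 95.6 CPM, and KRT15, another basal type I chain, at 10.3, 11.8 and 10.8 CPM. Per length KRT7 exceeded KRT17 by 23.3, 24.9 and 24.2 times. KRT16, often made with KRT6A, reached only 1.31, 1.5 and 1.03 CPM. KRT6B and KRT6C, near-identical to KRT6A, are not analysed here. KRT20 and KRT13, chains of umbrella and intermediate urothelial cells, were at trace level, with a count in only 1 library each.

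Seen along the genome, present keratin genes stood beside others that missed the limit for present. Of 34 keratin genes listed, 10 were present, 12 intermediate, 3 trace and 9 at 0. On chromosome 12 (GRCh38, GENCODE 29), KRT80 and KRT7 lie at the start of the cluster and KRT8 and KRT18 at its end. Each of these 4 was present, while all 12 genes between them were at 0, trace or intermediate. The highest of the 12, KRT81, was close to the limit at 1.08, 1.84 and 0.958 CPM. KRT7 spans positions 52232520 to 52252186 of chromosome 12, KRT5 spans 52514575 to 52520687, and KRT8 spans 52897187 to 52949954. On chromosome 17, KRT15, KRT19, KRT16 and KRT17 were present in the stretch that also holds KRT14. Hair keratin KRT34 was present at a low level, 2.46, 2.71 and 2.6 CPM.

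**Figure D1:**
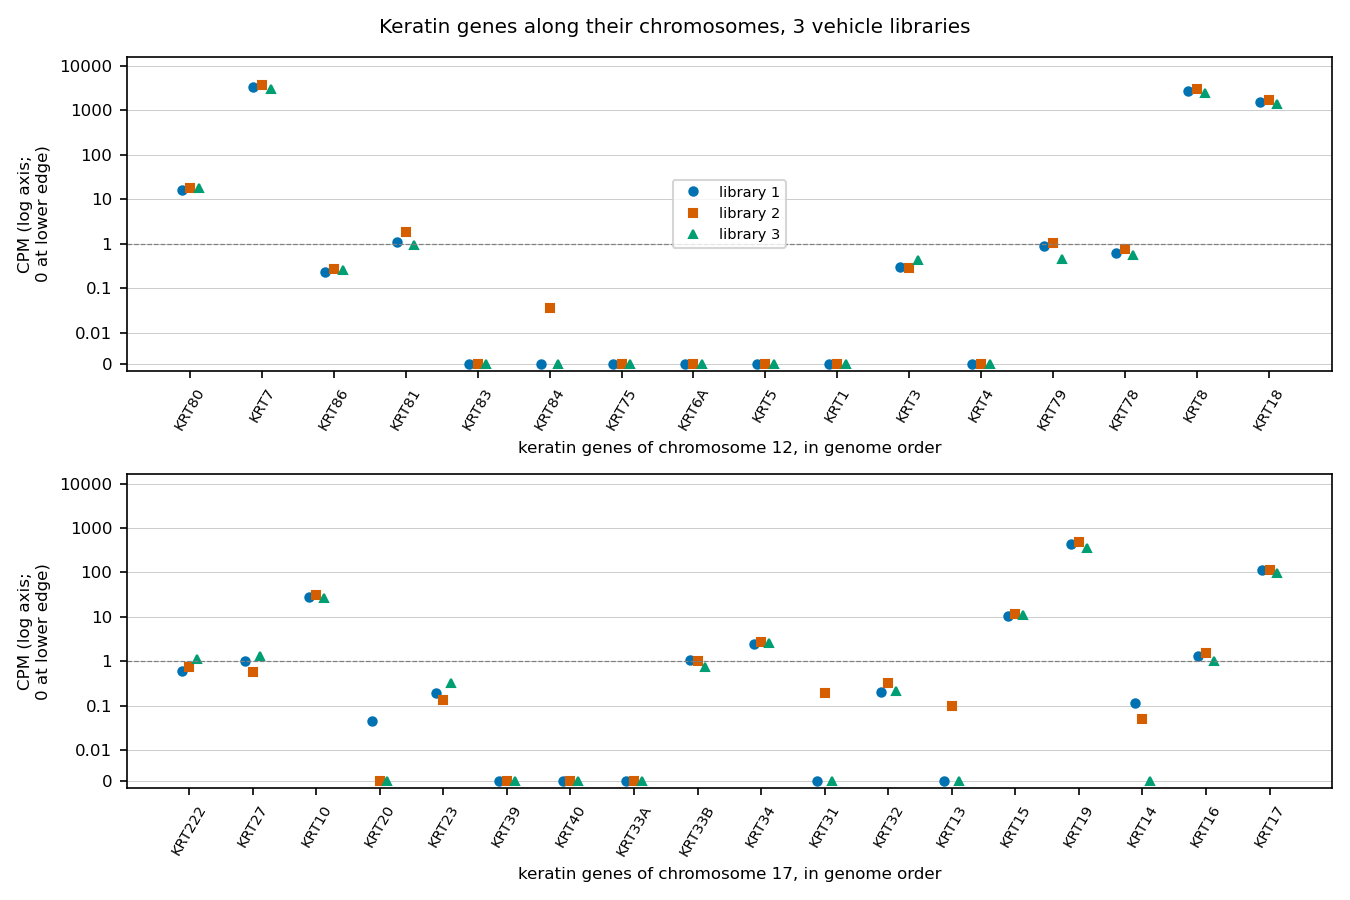
Level of each listed keratin gene of chromosomes 12 and 17 in genome order, as CPM on a log axis with 0 drawn at the lower edge; the 3 symbols are the 3 vehicle libraries and the dashed line marks 1 CPM. KRT7, KRT8 and KRT18 stand above 1000 CPM at the flanks of the chromosome 12 cluster, and KRT5 and KRT6A between them are at 0 in all 3 libraries.

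Among 18 listed basal urothelial genes, 10 were present and 3 were at 0, with a median of 1.6 ± 0.085 TPM against 4.0 ± 1.09 TPM over all protein-coding genes. The transcription factor that defines the basal layer, p63 (TP63), had a count of 0 in every library. Of the present members 6 were adhesion or matrix genes. LAMB3, a chain of the basement membrane protein laminin-332, stood at 360.3, 291 and 334 TPM, and CD44, a hyaluronan receptor, at 271, 228 and 315 TPM. ITGA6, an integrin chain of the hemidesmosome, had 56.3, 30.3 and 89.5 CPM and was lowest in library 2 and highest in library 3, while its partner ITGB4 stood at 27.3, 25.5 and 22.4 CPM. The basal desmosomal cadherins DSG3 and DSC3 and the placental cadherin CDH3 were all under 1 CPM in every library. Library 2 was lowest for 5 of the 10 present members.

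Transcripts of the beta and alpha chains of laminin-332 stood at very unequal levels. The beta chain LAMB3 stood at 328 ± 34.8 TPM, and the alpha chain LAMA3, without which the trimer does not form, at 1.24 ± 0.139 TPM. In libraries 1 to 3 LAMB3 exceeded LAMA3 per length by 283, 269 and 247 times. The gap is far larger than the spread between libraries, and with the longest transcript as length the mean ratio was 211. The alpha chain of another laminin, LAMA5, was abundant at 137 ± 14.6 TPM.

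Luminal differentiation genes had a lower median than the basal, junction and mesenchymal lists, yet some of their regulators were present. Of 24 listed, 8 were present, 8 intermediate, 2 trace and 6 at 0, with a median of 0.132 ± 0.0191 TPM. PPARG, the nuclear receptor that drives urothelial differentiation, was steady at 85.3, 81.4 and 88.1 CPM. GATA3 and FOXA1, transcription factors that act with it, stood lower, at 19.6, 13.9 and 23.1 CPM and 7.56, 4.03 and 10.5 CPM. FABP4, a lipid-binding protein and known PPARG target, was present at 4.92, 3.32 and 6.51 CPM. In GATA3, FOXA1 and FABP4 library 2 was lowest and library 3 highest, as it was in 6 of the 8 present members. In all, 7 of the 8 were lowest in library 2.

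The products of terminal differentiation were nearly missing. Uroplakins, the plaque proteins of the umbrella cell membrane, were at 0 for UPK1B and UPK3A. UPK2, the highest of them per length, had 0.46, 0.696 and 0.437 CPM, and UPK1A had 0.0561, 0 and 0.158 CPM. Among these only UPK2 and UPK3B had counts in every library. SNX31, VGLL1 and CYP4B1 were also at 0. FGFR3 and ERBB3, receptor kinases of luminal tumours, stood at 0.0785, 0.22 and 0.315 CPM and 0.796, 0.317 and 0.315 CPM, while ERBB2, which does not bind a ligand itself, was present at 129, 113 and 121 CPM.

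Among cell-cell junction genes the catenins were present and E-cadherin was not. CDH1, which encodes E-cadherin, the defining cadherin of epithelia, had a count of 0 in every library, and in this respect the data go against the label epithelial. Of 32 junction genes, 17 were present, 6 intermediate, 5 trace and 4 at 0, with a median of 0.949 ± 0.186 TPM. Of the catenins, which link cadherins to actin, CTNNA1 stood at 127, 108 and 139 TPM. JUP (plakoglobin) and CTNND1, which bind cadherin tails, stood at 75.9, 68.5 and 73.4 TPM and at 42.2, 32.4 and 48.9 TPM. CTNNB1, which binds the tail and also carries WNT signals, was lower, at 14.6, 8.13 and 19.5 TPM, with library 2 lowest. PKP3, a desmosomal plaque protein, was present at 84 ± 6.87 TPM and SPINT1, a protease inhibitor of epithelial surfaces, at 52.1 ± 6.78 TPM.

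Several other epithelial identity genes were low or at 0, with CLDN1 an exception. EPCAM, a widely used epithelial surface marker, had 2.37, 1.05 and 2.58 CPM. ESRP1 and ESRP2 set the epithelial pattern of splicing, and of the 2 only ESRP2 was present, at 9.48, 8.59 and 8.43 CPM, while ESRP1 had 0.0785, 0 and 0.0243 CPM. The factor GRHL2 was at trace level and OVOL1, RAB25 and CRB3, all linked to epithelial polarity or identity, were at 0. Among claudins, the tight junction strands, CLDN1 was present at 85.2, 57.8 and 108 CPM and CLDN4 at 5.0, 4.35 and 3.87 CPM, while CLDN7 stayed under 1 CPM. Library 2 was lowest for 13 of the 17 present members (76.5%).

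Mesenchymal genes had a higher median than the basal, luminal and junction genes. Of 32 listed, 23 were present, 2 intermediate, 3 trace and 4 at 0, with a median of 7.09 ± 1.01 TPM. TGM2 led at 1183, 1136 and 1115 TPM, followed by the collagen VI chain COL6A2 at 758, 809 and 631 TPM and by FN1 at 529.5, 377 and 742 TPM. The 3 libraries lay close together for TGM2 and spread widely for FN1. The receptor kinase AXL was steady at 215, 206 and 225 TPM. VIM, the mesenchymal intermediate filament vimentin, stood at 56.8, 41.4 and 56.7 TPM, under KRT7, KRT8, KRT18 and KRT19 in every library, and CDH2, N-cadherin, at 21.4, 14.2 and 26.3 TPM. CDH2 was therefore present in the same libraries in which CDH1 was at 0. Of the 23 present members 14 (60.9%) were lowest in library 2.

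Some transcription factors of the mesenchymal state were present and others were not. SNAI2 led per length at 15.7, 6.77 and 23.4 TPM, with library 2 lowest, and FOXC2 and SNAI1 followed at 11.6 ± 5.65 TPM and 4.3 ± 0.387 TPM. ZEB1, a repressor of CDH1, was present at 5.41, 3.52 and 9.1 CPM and ZEB2 at 2.87, 2.14 and 3.03 CPM. TWIST1 was at trace level and TWIST2 and PRRX1 were at 0. Among genes typical of fibroblasts, the fibrillar collagens COL1A2 and COL3A1 were at trace level and POSTN and CDH11 at 0. COL1A1 reached only 1.09, 1.2 and 1.59 TPM, under each collagen VI chain in every library.

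**Figure D2:**
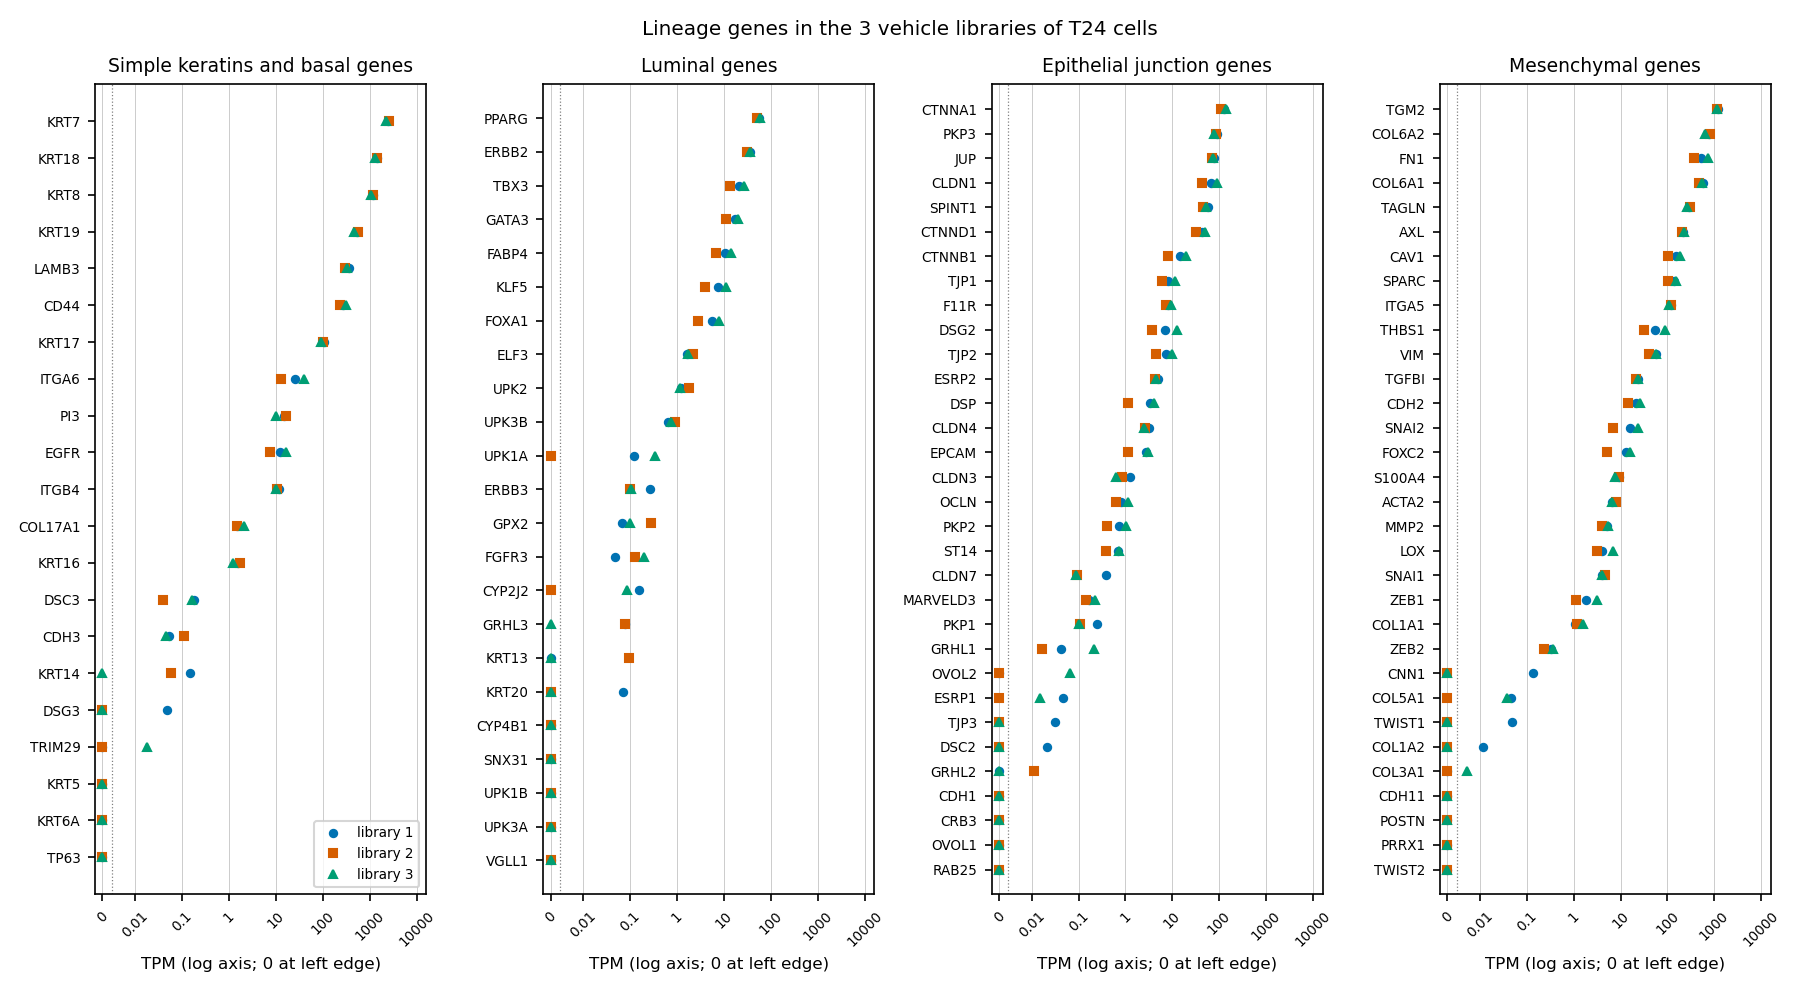
Level of members of 4 groups of lineage genes, sorted by mean, as TPM on a log axis with 0 drawn left of the dotted line; the 3 symbols are the 3 vehicle libraries. KRT7, KRT8, KRT18 and TGM2 stand at or above 1000 TPM, while KRT5, TP63, CDH1 and UPK3A are at 0 in all 3 libraries.

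Markers of other cell types were mostly near 0. In bulk libraries few cells with much of a transcript and many cells with little cannot be told apart. Of 8 fibroblast markers none was present, DCN and LUM were at 0, and the whole list summed to between 1.68 and 3.13 CPM. Of 10 leukocyte markers PTPRC (CD45), CD3D and ITGAM were at 0, and only CD68 and CD14 were present, the list summing to between 8.81 and 15.5 CPM. The 8 endothelial markers summed to between 3.70 and 5.41 CPM, with KDR at 0 and ESAM and TIE1 present. Of 6 smooth muscle markers SYNM and MYH11 were present and DES was at trace level, and the list summed to between 4.79 and 5.87 CPM. CHGA, which defines neuroendocrine cells, was at 0, and the neuroendocrine list of 8 summed to between 33.1 and 40.0 CPM, nearly all of it ENO2, an enolase also found outside neurons.

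Of 8 markers of other epithelia 2 were present, with PAX8 the higher per length. PAX8, a transcription factor of kidney, thyroid and Müllerian epithelium, stood at 542, 532 and 522 CPM, with a coefficient of variation of 1.87%. Its relative PAX2 had no count in libraries 1 and 2 and 0.121 CPM in library 3, and TG, a thyroid product, was at trace level. ALB and VIL1, of liver and intestine, were at 0. Per length PAX8 exceeded GATA3 by 12.8, 17.8 and 10.5 times, a mean that the longest transcript as length raised to 22.2.

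Receptor tyrosine kinases, which read growth factors at the surface, were led by EPHA2 and AXL. Of 50 listed, 23 were present, 13 intermediate, 3 trace and 11 at 0. EPHA2, a receptor for ephrins on neighbouring cells, stood at 299.8, 201 and 319.7 TPM, and AXL, whose ligand is GAS6, at 215, 206 and 225 TPM. After these came PTK7 at 38 ± 7.8 TPM, EPHB4 at 34.5 ± 3.49 TPM, ERBB2 at 33.9 ± 3.25 TPM and MST1R at 32.2 ± 1.92 TPM. EPHA2 and AXL did not differ beyond their spread. The gap from AXL down to the next was larger than the spread of each, while the means of the 4 lower ones lay within the spread of PTK7, the widest of them. Of the 23 present kinases 15 (65.2%) were lowest in library 2.

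EGFR, the receptor of EGF and its relatives, was present at 12.1, 7.42 and 16.5 TPM, and MET, the receptor of HGF, at 14.4, 9.14 and 18.2 TPM. Their means lay within 1 SD of each other, a spread both shared, and MET was slightly higher in every library. Per length EPHA2 exceeded EGFR by 24.7, 27.1 and 19.4 times, and AXL by 17.7, 27.8 and 13.7 times. ERBB2 exceeded EGFR by 3.01, 4.08 and 2.12 times, and by 5.04 on average with the longest transcript as length. Of the FGF receptors FGFR1 was present at 61.8, 49.8 and 61.9 CPM and FGFR4 at 1.74, 1.76 and 1.27 CPM, while FGFR2 was at trace level. KIT, FLT3, ALK, ROS1, KDR and FLT4 were at 0.

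For some of these receptors a ligand was present in the same libraries, and for others it was not. GAS6, which activates AXL, stood at 210.0, 200.3 and 188 CPM. For EGFR the ligands HBEGF (29.9 ± 2.99 TPM), EREG (30.2 ± 14.2 TPM), TGFA (12.6 ± 5.52 TPM) and AREG (11.6 ± 2.83 TPM) were present and EGF itself was under 1 CPM in every library. EREG spread widely, at 62.7, 31.3 and 83.4 CPM, lowest in library 2. HGF, the ligand of MET, and IGF1, a ligand of IGF1R, were at 0, although IGF2 was present at 41.2, 45.7 and 43.5 CPM. NRG1, the ligand of ERBB3, was present at 25.8, 19.3 and 26 CPM while ERBB3 was not present.

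Of 64 growth factor genes and secreted modulators, 41 were present, 14 intermediate, 6 trace and 3 at 0, with a median of 3.98 ± 1.56 TPM, close to that of all protein-coding genes. MDK, the heparin-binding factor midkine, led at 466, 549 and 384 TPM, highest in library 2, and TGFB1 followed at 432, 442 and 375 TPM. DKK3 and DKK1, secreted proteins of a family that includes WNT inhibitors, stood at 318 ± 66.5 TPM and 219.6 ± 72 TPM. TGFB3 stood at 1.1, 0.564 and 1.16 TPM and TGFB2 at 2.5, 1.62 and 3.65 TPM, so TGFB1 was the highest TGF-beta isoform in every library, exceeding TGFB2 per length by 173, 273 and 103 times. The angiogenic factors VEGFB, VEGFC and VEGFA stood at 210.0 ± 22.3 TPM, 91.2 ± 26.1 TPM and 13.8 ± 3.93 TPM. GDF15, a stress-released member of the TGF-beta family, was present at 95, 90.0 and 77 CPM. Among the 41 present, 27 (65.9%) were lowest in library 2.

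Receptors of the TGF-beta, WNT, Notch and Hedgehog families were broadly present, 24 of 30, against 65.1% of all listed protein-coding genes. ENG, a co-receptor of TGF-beta known best from endothelium, led at 296, 309.8 and 265 TPM. TGFBR2, the kinase that binds TGF-beta, stood at 40.7, 27.9 and 59.7 TPM, lowest in library 2, and its partner TGFBR1 at 3.02, 1.44 and 4.6 TPM. Among WNT receptors FZD8 (58.4 ± 15.8 TPM), FZD2 (44.4 ± 1.66 TPM) and the co-receptor LRP5 (48.3 ± 8.43 TPM) were highest, and FZD10 was at 0. NOTCH1 and NOTCH2 were present at 6.07 ± 1.31 TPM and 6.15 ± 2.39 TPM, and NOTCH3 was at trace level. Library 2 was lowest for 18 of these 24.

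Of 53 cytokine receptor genes 24 were present, 14 intermediate, 4 trace and 11 at 0. TNFRSF1A, the main receptor of TNF, was far above the rest at 220.4, 181 and 215 TPM. IFNGR2 and IL4R followed at 35.9 ± 6.97 TPM and 31.2 ± 2.05 TPM, which did not differ beyond their spread. The shared signalling chain IL6ST (gp130) stood at 18.3, 11.6 and 26.4 TPM, lowest in library 2. OSMR, its partner for oncostatin M, was present at 17.7 ± 4.99 TPM. Of the chemokine receptors on this list, which does not hold all of them, only CCR7 was present, at 1.16, 1.31 and 1.1 CPM. CXCR1, CXCR2, CCR1, CCR4, CX3CR1 and ACKR3 were at 0, and CXCR4 had 0.224, 0 and 0.0971 CPM. Of the 24 present receptor genes 16 (66.7%) were lowest in library 2.

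Cytokine genes were fewer than growth factors: 22 of 58 were present, 20 intermediate, 5 trace and 11 at 0. The share present was 37.9%, against 65.1% of all listed protein-coding genes. MIF, a constitutively stored inflammatory mediator, led at 1885, 2299 and 1496 TPM, with library 2 highest, and it shares exon bases with its antisense gene. By mean TPM CXCL1, a neutrophil chemokine, followed at 299, 162 and 325 TPM and LIF, a cytokine of the gp130 family, at 247, 191 and 255 TPM. In library 2 LIF stood above CXCL1. With the longest transcript as length IL1B (interleukin-1 beta) averaged 249 TPM, above CXCL1 at 228 TPM and LIF at 171 TPM, so the order after MIF rests on the length used. Library 2 was lowest for 19 of the 22 present genes (86.4%), and MIF was among the exceptions. The anti-inflammatory IL10, the interferons IFNB1 and IFNA1, and CXCL9 and CXCL12 were at 0.

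For several secreted factors the ligand gene was present while the receptor genes named here were not. CXCL8 (interleukin-8) stood at 71.7, 40.3 and 100.05 CPM, and both of its receptors were at 0. CSF3, the growth factor of neutrophils, stood at 100.5, 87.5 and 93.4 CPM, while its receptor CSF3R had 0.0673, 0 and 0 CPM. CSF2 stood at 8.52, 3.53 and 3.07 CPM, with CSF2RB, its signalling chain, at 0. The ligand-binding chain CSF2RA was intermediate, at 0.146, 0.061 and 0.0485 CPM. In these 3 cases the ligand was present in every library, and none of the receptor chains named reached 1 CPM in any.

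For interleukin-1 and LIF, ligand and receptor were both expressed. IL1B stood at 198, 149 and 219.9 CPM and IL1A at 8.58, 5.19 and 9.27 CPM. Their receptor IL1R1 was present at 2.59, 1.2 and 2.83 CPM and its partner IL1RAP at 7.13, 3.09 and 11.3 CPM, while the antagonist IL1RN was at 0. Per length IL1B exceeded IL1A by 15.8, 19.7 and 16.3 times, and by 32.8 on average with the longest transcript as length. LIF stood at 231 ± 35.1 TPM, against 0.549 ± 0.378 TPM for LIFR, its specific chain, which was under 1 CPM in library 2. The shared chain IL6ST, at 18.8 ± 7.45 TPM, was more abundant than LIFR in every library.

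Sensors of microbial products were present in part. Of 32 pattern recognition and inflammasome genes 19 were present, 8 intermediate, 2 trace and 3 at 0. The share present, 59.4%, lay near the 65.1% of all listed protein-coding genes. TLR4, the receptor of LPS, was present at 19.9, 13.8 and 25.3 CPM, and its adaptor MYD88 at 63.4, 51.5 and 66.9 CPM. LY96 (MD-2), the subunit with which TLR4 binds LPS, had only 0.146, 0.061 and 0.243 CPM, and CD14, which hands LPS over, stood at 3.45, 3.97 and 2.92 CPM. Per length TLR4 exceeded LY96 by 6.24, 10.3 and 4.77 times. LY96 was far under 1 CPM in every library, so these ratios carry a large counting error. TLR2 and TLR3 were present near 1 TPM, and TLR7, TLR9 and NOD2 were at 0.

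Genes of inflammasome signalling were present from sensor to pore. NLRP1 (33.1 ± 3.54 TPM) stood above NLRP3 (2.92 ± 0.588 TPM) by more than the spread of either. The adaptor PYCARD stood at 66.6, 86.7 and 58.1 TPM, with library 2 highest. CASP4, which binds LPS in the cytosol, stood at 119, 137 and 111 CPM, CASP1 at 14.3, 15.2 and 15 CPM, and the pore-forming GSDMD at 161, 172 and 139.6 CPM. AIM2, a DNA sensor, was at trace level, while the DNA sensing adaptor STING1 was present at 106, 111 and 96.4 CPM. Library 2 was lowest for 8 of the 19 present genes (42.1%).

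**Figure D3:**
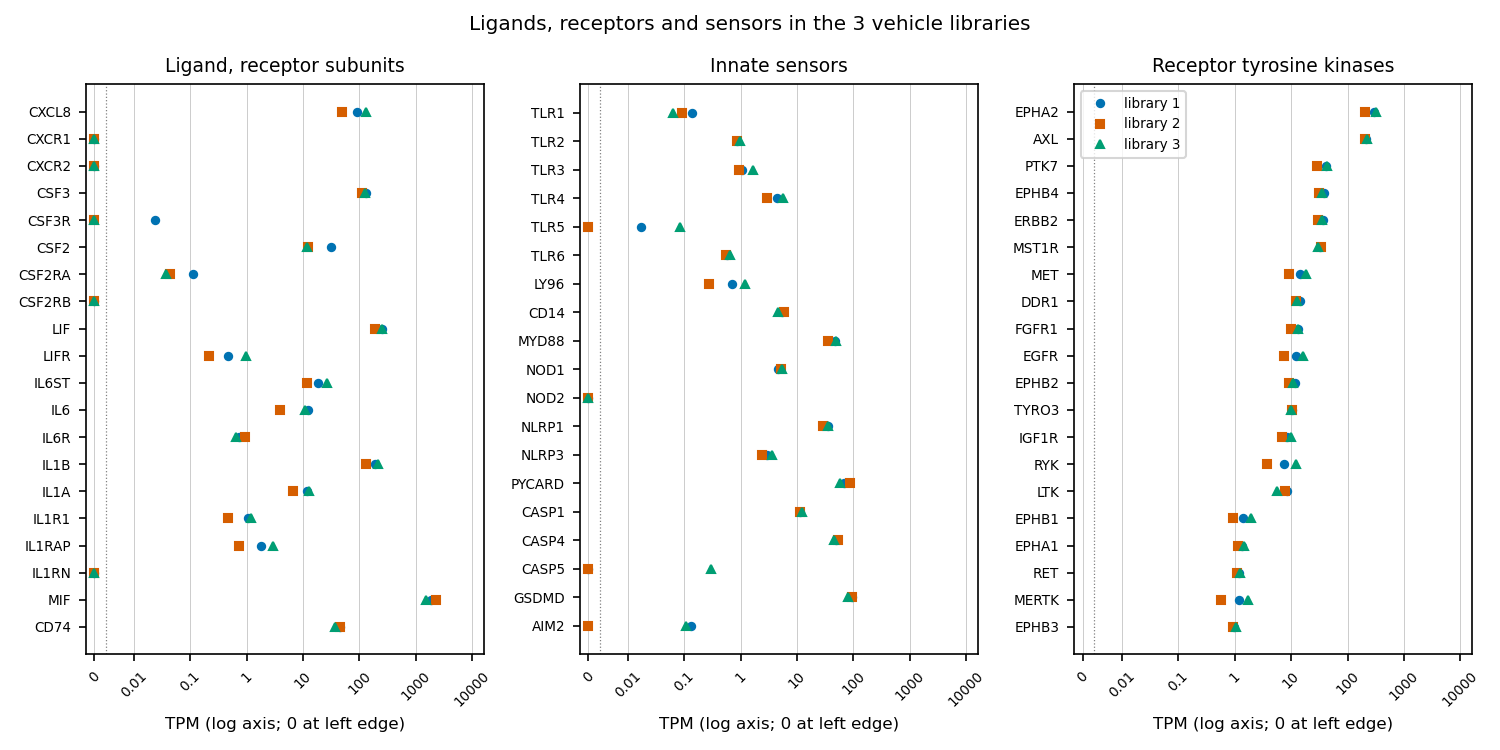
Levels of selected ligands with their receptor subunits, of innate sensors, and of the 20 highest receptor tyrosine kinases, as TPM on a log axis with 0 drawn left of the dotted line; the 3 symbols are the 3 vehicle libraries. CXCL8 and CSF3 stand near 100 TPM while CXCR1, CXCR2 and CSF2RB are at 0, and EPHA2 and AXL stand above all other receptor kinases.

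Of 39 nuclear receptors, transcription factors gated by small molecules, 20 were present, 10 intermediate, 3 trace and 6 at 0. NR1H2, a receptor of oxysterols, led at 87.8, 93.6 and 77.9 TPM, followed by NR2F6 at 74.7 ± 9.13 TPM, ESRRA at 55.5 ± 4.75 TPM and PPARG at 54.2 ± 4.14 TPM. The partner of PPARG, RXRA, stood at 89.9, 89.6 and 86.6 CPM. The glucocorticoid receptor NR3C1 was present at 33.3, 23.9 and 41 CPM. The progesterone receptor PGR was at 0, and the estrogen receptor ESR1 had counts in library 3 alone, at 0.255 CPM. Among the 20 present, 11 were lowest in library 2.

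Matrix and protease genes were the most fully expressed of the secreted groups, 38 of 46 present with a median of 18.2 ± 9.20 TPM. Over all listed protein-coding genes 65.1% were present, with a median of 4.0 ± 1.09 TPM. TIMP1, an inhibitor of matrix metalloproteinases, led at 1032, 1203 and 966 TPM, highest in library 2. The lysosomal protease CTSD stood at 746, 816 and 613 TPM and the membrane-bound metalloproteinase MMP14 at 564, 439 and 577 TPM. PLAU, the protease urokinase, stood at 230.3 ± 23.4 TPM. MMP1, MMP2 and MMP13 were present at under 10 TPM each, and MMP7, MMP9 and MMP12 were at 0. Among collagens, COL4A2 stood at 154, 136 and 153 TPM and exceeded COL4A1, with which it forms basement membrane, by 4.47, 5.74 and 3.52 times per length. Among the 38 present, 32 (84.2%) were lowest in library 2, and the list's median was 17.7, 9.18 and 27.6 TPM in the 3 libraries.

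Integrins, the receptors of that matrix, were led by ITGA3. Of 24 listed 15 were present (62.5%), near the 65.1% of all listed protein-coding genes. ITGA3 stood at 912, 941 and 839 TPM, against 113, 62.1 and 164 TPM for ITGB1, the beta chain it pairs with. ITGB1 was lowest in library 2 and highest in library 3, and ITGA3 the reverse, so their ratio ran from 5.13 in library 3 to 15.2 in library 2. Across libraries the alpha chain was always higher per length. ITGA5, a fibronectin receptor chain, stood at 116 ± 8.59 TPM and ITGB5, of a vitronectin receptor, at 74.8 ± 9.32 TPM. ITGB6, an epithelial activator of TGF-beta, had counts in library 2 alone. Among the 15 present, 8 (53.3%) were lowest in library 2.

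Of 35 immune surface genes 29 were present (82.9%), against 65.1% of all listed protein-coding genes. The class I genes HLA-E, HLA-B and HLA-C, which present peptides to immune cells, stood at 428 ± 24 TPM, 179.8 ± 11.7 TPM and 133 ± 8.05 TPM. Their reads can be split between near-identical copies, so these levels are uncertain. B2M, the light chain, stood at 632, 375 and 802 CPM, lowest in library 2 and highest in library 3, whereas HLA-E, at 445, 478 and 401 CPM, was highest in library 2 and lowest in library 3. Class II was incomplete, with HLA-DRA at 0 although HLA-DPA1 was present at 14.4, 12.8 and 14.1 CPM, the class II chaperone CD74 at 49.5, 52 and 39.2 CPM and the class II activator CIITA at 3.17, 3.55 and 4.17 CPM. CD274 (PD-L1) was present at 5.66, 3.65 and 7.36 CPM, CD276 at 194, 154 and 175 CPM, and the costimulator CD40 at 153, 167 and 143 CPM. CD86, VCAM1 and VTCN1 were at 0. Among the 29 present, 14 (48.3%) were lowest in library 2.

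Nearly all genes of proliferation listed were present. Of 25 cell cycle genes 24 were present (96.0%), against 65.1% of all listed protein-coding genes, with a median of 102 ± 13.7 TPM. CDC20, an activator of the anaphase-promoting complex, stood at 1121, 1184 and 1026 TPM, and PCNA, the replication clamp, at 498, 322 and 653 TPM. MKI67, the usual marker of cycling cells, stood at 257, 237 and 297 CPM. TOP2A spread more than most, at 155, 71.9 and 213 CPM, and was lowest in library 2. Of the D cyclins, which start the cycle, CCND1 stood at 379.8 ± 37.4 TPM and CCND3 at 37.9 ± 0.921 TPM, and CCND2 was at 0. CCND1 exceeded CCND3 by 9.88, 9.27 and 10.9 times per length, and by 4.63 on average with the longest transcript as length. Among the 24 present, 16 (66.7%) were lowest in library 2.

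Of 37 genes often altered in bladder cancer 34 were present (91.9%, against 65.1% of all listed protein-coding genes) and none was at 0. HRAS, the oncogene long studied in this line, led the list at 625, 676 and 551 TPM. NRAS, a close relative of HRAS, stood at 23.9, 15.1 and 34.9 TPM. HRAS exceeded NRAS in all libraries, but the ratio ran from 15.8 in library 3 to 44.7 in library 2, where HRAS was highest and NRAS lowest. With the longest transcript as length the mean ratio was 43.4. CDKN2A, a cell cycle inhibitor commonly deleted in this cancer, was present at 108, 116 and 99.6 CPM, and CDKN1A at 193, 195 and 169 CPM. RB1, the retinoblastoma tumour suppressor, spread widely at 13, 5.41 and 27.6 CPM. Counts at a gene say nothing of whether its product is mutated.

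Telomerase and a surface target were also on that list. TERT, the catalytic subunit of telomerase, was present at 7.23, 5.96 and 6.32 CPM. NECTIN4, the target of an antibody conjugate, stood at 0.123, 0.354 and 0.146 CPM, under 1 CPM throughout. MYC, a transcription factor of cell growth, was present at 73.1, 50.1 and 76.4 CPM and was lowest in library 2. Library 2 was lowest for 27 of the 34 present genes (79.4%).

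The abundant genes differed from the rest in base composition. Protein-coding genes with a mean of 100 CPM or more (1968 genes) had a median GC content of 56.1% in their longest transcript and a median length of 2990.0 bases. Present genes under 100 CPM (9461) had 47.2% and 3861 bases. Genes at 0 in all libraries (2079) had 48.6% and 2488 bases.

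The spread between libraries varied with base composition and with level, which were themselves related, and their parts were not separated. The common biological coefficient of variation (edgeR, intercept only, 16855 genes) was 0.257. The median coefficient of variation of a gene was 34.1% in the fifth of protein-coding genes with the lowest GC content and 11.4% in the fifth with the highest, against 17.2% over all 11843 with a mean of 1 CPM or more. Library 2 was the lowest of the 3 for 94.0% of genes in the former and 21.5% in the latter. By level, the median was 24.3% for genes with a mean of 1 to 10 CPM, 16.0% from 10 to 100, 9.67% from 100 to 1000 and 10.7% from 1000 up.

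Libraries 2 and 3 were the farthest apart. Pearson's r of log2 CPM over 13541 genes with a mean of 1 CPM or more was 0.964 between libraries 2 and 3, 0.981 between 1 and 2 and 0.985 between 1 and 3. Genes are not independent replicates, and these values are descriptions. The log2 ratio of library 3 to library 2 fell with GC content across 11843 protein-coding genes (Spearman's rho -0.703) and rose with transcript length (0.361). The median absolute log2 ratio was 0.43 for that pair, 0.26 for 1 and 2 and 0.21 for 1 and 3. Chi-square per degree of freedom was 54.3 to 187 between pairs, so every pair differed by far more than counting error.

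**Figure D4:**
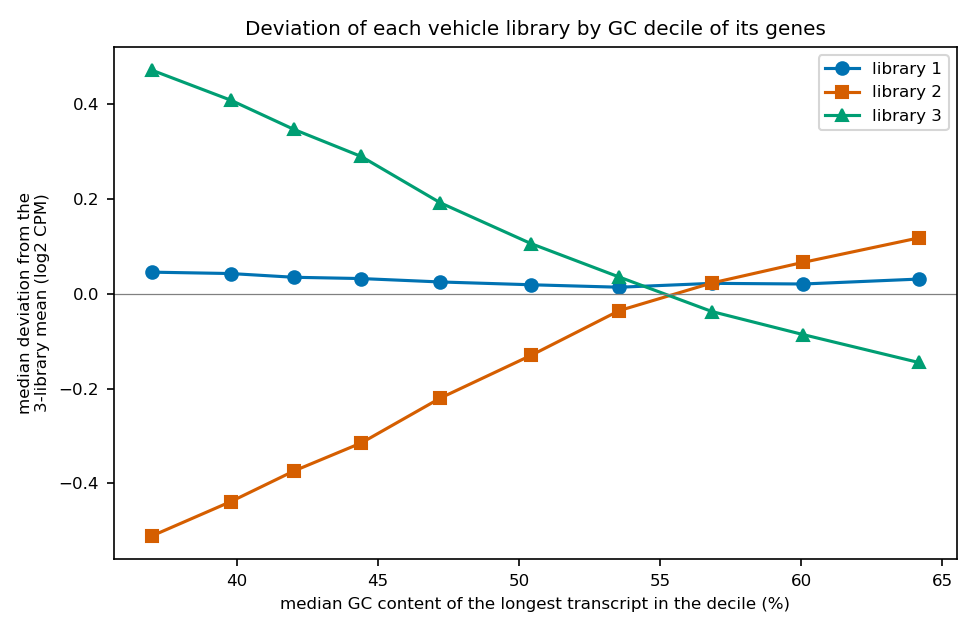
Median deviation of each vehicle library from the 3-library mean, in log2 CPM, over deciles of protein-coding genes by GC content of the longest transcript; lines and symbols are the 3 libraries. Library 2 runs from -0.51 in the lowest decile to 0.12 in the highest, library 3 from 0.47 to -0.15, and library 1 stays between 0.01 and 0.05.

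Counted gene by gene, library 2 was at least 2-fold under the mean of the others for 1428 of 13541 genes and at least 2-fold above it for 64. Library 3 was at least 2-fold above for 662 and under for 106, and library 1 above for 55 and under for 108. With TMM factors library 2 was under for 812 and above for 95, and with RLE factors for 739 and 110. Library 3 was then above for 335 and under for 132 with TMM, and for 322 and 141 with RLE. With offsets for GC content and length fitted in each library, the counts of library 2 came to 145 under and 52 above, and those of library 3 to 55 above and 78 under, of 13415 genes with both properties. These offsets also remove any difference between the cells that follows either property.

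The genes that stood farthest off in a library were mostly ones that share exons with a neighbour. The 5 largest ratios in each direction per library, over genes whose mean reached 10 CPM, came to 21 distinct genes. Of 18 with an annotation, 16 share at least 50 exon bases with another gene, whereas 49.3% of the 8481 annotated genes above that level do. BEST1, a chloride channel gene that shares exons with FTH1, had 841, 19.6 and 207 CPM, whereas FTH1 itself had 8732, 10071 and 8165 CPM. PTP4A1, a phosphatase gene, had 55.5 CPM in library 1, a count of 0 in library 2 and 74.2 CPM in library 3. ENSG00000285976, which shares exon bases with it, had 0.0897, 30.3 and 1.64 CPM. The sum of that pair was 55.6, 30.3 and 75.8 CPM, lowest in library 2. Whether the reads of ENSG00000285976 in library 2 fell on the shared exon bases was not tested.

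In 7 of 9 such pairs the sum varied less than the gene, PPIB and TMEM256 being the exceptions. These pairs were chosen after their values were seen, mostly from the genes farthest off, so the count says nothing of pairs in general. PLSCR3 and TMEM256 were both paired with TMEM256-PLSCR3. MGAT2, a glycosyltransferase gene, had 32.0, 5.0 and 21.6 CPM, and its sum with ENSG00000258377 was 33.5, 20.6 and 43.1 CPM. HNRNPUL2, which encodes an RNA-binding protein, had a coefficient of variation of 20.3% alone and 10.1% summed with the readthrough gene HNRNPUL2-BSCL2. For ALDOA (aldolase) these were 18.4% and 12.8% with ENSG00000285043. PPIB, an isomerase of the secretory pathway, went from 3.17% alone to 5.76% with SNX22. MRM2, a mitochondrial RNA methyltransferase gene, and the pseudogene RPL14P1 were the 2 annotated genes without such a neighbour. MRM2 had 33.1, 34.0 and 6.22 CPM, so library 3 alone was low.

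**Figure D5:**
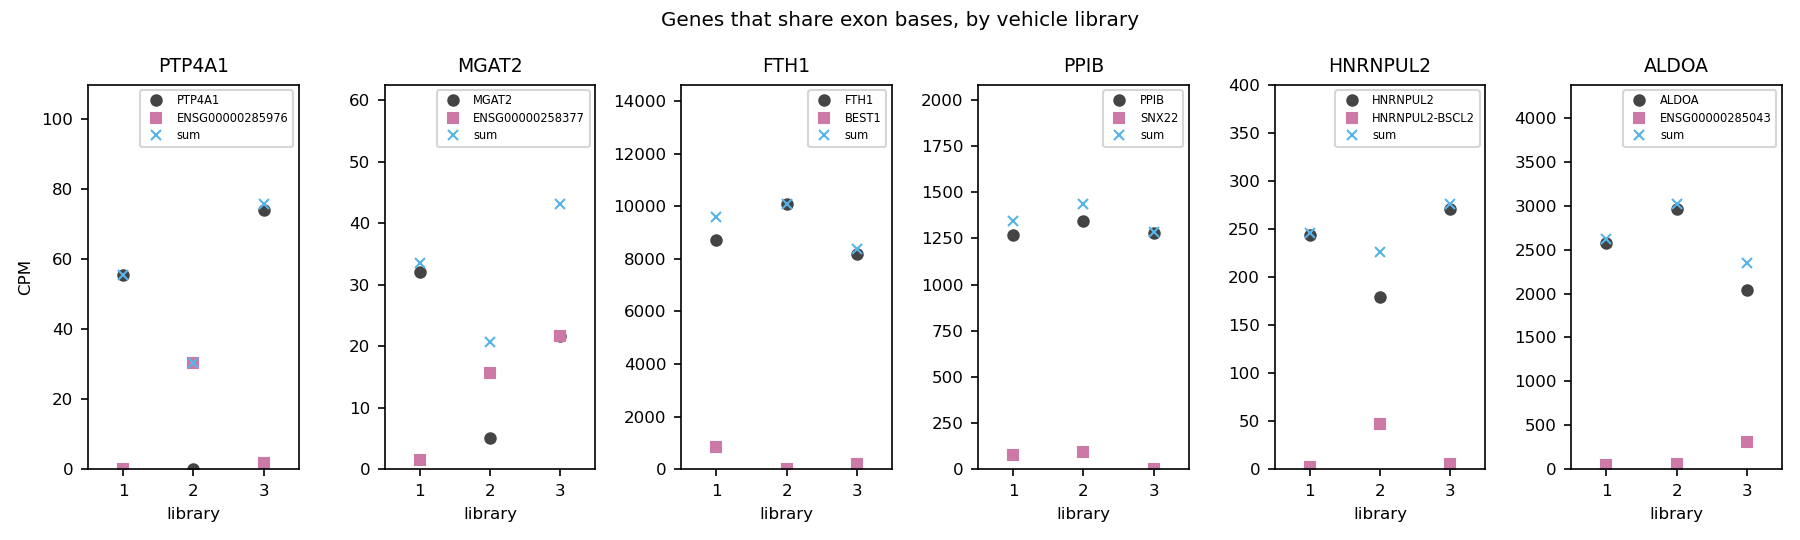
CPM of 6 genes, of a gene that shares exon bases with each, and of their sum, by vehicle library; each panel has its own axis from 0. In the PTP4A1 panel the gene is at 0 in library 2, where its partner ENSG00000285976 holds 30.3 CPM, and in the HNRNPUL2 panel the sum varies less than the gene.

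At the other end, some genes hardly differed between libraries. Over genes whose mean reached 100 CPM, LZTS2, a leucine zipper protein gene, had 106.6, 106.5 and 106.6 CPM, the smallest coefficient of variation at 0.0597%. BRK1, a subunit of the actin-regulating WAVE complex, had a coefficient of 0.211%, and COX5A, a nuclear subunit of cytochrome oxidase, 0.514%. The 10 steadiest genes also included ABHD12, SLC25A5, MOB3A, PITRM1, MAST2 and the pseudogene MTCO1P12. The ranking is a description of these libraries.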

How the data were processed

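RNA sequencing of T24 cells was deposited as a gene-by-library table. Its counts, keyed by Ensembl identifier and not normalized, were made by the authors and are whole numbers, per the file headers and the values; the build is hg38, per the submitters' processing notes. For the aligner, counter, annotation and strand setting, the sources used here give nothing. Columns were assigned by the library name in the labels, and 0 columns belonged to no sample. Only the 3 vehicle columns were used.

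Of 37871 identifiers 37840 matched a symbol. CPM used library totals. TPM used merged exon length from GENCODE 29, held for 35885 genes; the 1986 others took 0.138% of counts. edgeR 4.0.16 in R 4.3.3 gave TMM and RLE factors and the common dispersion, tested on simulated data. Python 3.11.15 did the rest. Totals of 81917343 to 89152224 counts make counting error small above a few CPM. GC and length offsets were loess fits (span 0.3). Log ratios used CPM plus 0.5.

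There is 1 group, so no test was run and no p-value is given. Members and lists (23 lists, 619 of 651 names matched, the rest not analysed here) were chosen with earlier results of these data known. The naming rule took the 25 highest genes by CPM, in each list up to 6 highest members by TPM, its defining members and those at 0, the 5 largest ratios per library in each direction above 10 CPM, and the 10 steadiest above 100 CPM. Further members named to complete a pathway, the exon-sharing partners and all genes in the closing section were chosen after their values were seen. Some members that the rule names are not reported here. Alternatives were other scalings, thresholds, lengths and leaving out each library.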

Additional observations from a re-analysis of the deposited data

How the results depend on the processing

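With 3 libraries of 1 group, values describe these libraries and carry no test; strand and counting rules limit genes that share exons, and counting error matters most under 1 CPM. No paired analysis was possible because only vehicle libraries were used and no result comes from a test. The number of genes present ranged from 11592 to 14119 over the thresholds, scalings and left-out libraries tried, within 1.5 times of 12861. Levels of 81 genes, the 25 most abundant and up to 3 present members of each list, moved by -1.93% to 2.31% under TMM factors and -2.19% to 2.83% under RLE factors, less than 1 SD each. Leaving out 1 library moved them by -29.3% to 21.0%; with 3 libraries such a move cannot reach 1 SD, so that comparison says nothing of stability. Totals without mitochondrial genes raised them by 7.28% to 7.54%, beyond 1 SD for 20 of them. The common biological coefficient of variation was 0.389 with no count filter, and 0.198 to 0.322 without each library in turn, lowest without library 2. On the CPM scale in place of TPM the list medians were 2.00 (basal), 0.183 (luminal) and 8.61 (mesenchymal), which is a change of scale. Genes at least 2-fold off in either direction numbered 163 for library 1, 1492 for library 2 and 768 for library 3. For library 1 they were 51 at a mean of 5 CPM, 463 at 1.5-fold and 105 with GC and length offsets. For library 2 they were 907 with TMM, 849 with RLE, 915 at 5 CPM, 4152 at 1.5-fold and 197 with the offsets. For library 3 they were 467 with TMM, 463 with RLE, 384 at 5 CPM, 3382 at 1.5-fold and 133 with the offsets.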

Other observations

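Homeobox genes of the HOX clusters, which carry positional identity along the body axis, had present members in each cluster. Of all listed protein-coding genes 65.1% were present, the share to set beside these counts. Of 10 HOXB genes listed 9 were present and HOXB1 was at 0, and all 7 HOXC genes listed were present. HOXB7, HOXB6 and HOXB2 were the highest HOX genes, at 95.1 ± 6.46 TPM, 77.2 ± 14.5 TPM and 72.5 ± 11.7 TPM. In the HOXA cluster 8 of 11 genes were present, none above 11.1 ± 0.258 TPM, and in the HOXD cluster 6 of 9. The counts of these HOXA and HOXD genes lay near the share of all protein-coding genes. HOXB13, the last gene of its cluster, was present at 14.2, 16.1 and 14.4 CPM, and HOXA13 at 6.42, 4.27 and 6.39 CPM, while HOXD13 was at 0. Many of these genes share exon bases with an antisense neighbour, HOXA13 with HOTTIP among them.

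The S100 genes, small calcium-binding proteins, split by member, with 9 of 16 present. S100A11, S100A6 and S100A16 led at 2199 ± 209 TPM, 1296 ± 85.6 TPM and 1212 ± 134 TPM, and S100A2, known from basal epithelium, stood at 872 ± 37.1 TPM. S100A8 and S100A9, the pair that forms calprotectin, were at 0 in every library, and S100P, known from luminal urothelium, had 0.112, 0.269 and 0.267 CPM. Of 6 metallothioneins, which bind zinc and copper, MT2A stood at 3545 ± 277 TPM and MT1E at 808 ± 45.4 TPM, the other present members under 20 TPM, and MT1G at 0. Of 27 cancer-testis genes of the MAGE, GAGE, SSX, CTAG and PRAME families, 1 was present (MAGEA3, 1.54, 1.09 and 1.63 CPM) and 11 were at 0, PRAME among them; members of these families are near-identical, so their levels are uncertain.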
